A study of Mus musculus with 6 samples.

Results

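The genes described here are 9 that mark B lymphocytes: the antigen-receptor subunits Cd79a and Cd79b, the surface proteins Ms4a1, Cr2, Fcer2a and Cd22, the kinase Blk, and the transcription factors Pax5 and Spib. They were found by symbol in a deposited table of 54556 mouse genes, and all 9 were present, with 1 row each. They were chosen with the difference between the groups already known, so that difference is given for them as a description, without a test. The libraries came from pancreatic islets of C57BL/6 mice on normal chow at 8 weeks. All 6 carried floxed Mettl3, the gene for the methyltransferase that writes N6-methyladenosine on mRNA. Of these, 3 were labelled Mettl3 flox/flox and 3 were labelled β-Mettl3-KO, Mettl3 flox/flox with RIP-Cre. RIP-Cre is a Cre recombinase driven by the rat insulin promoter, which directs it to β cells. No library carried Cre alone, so Cre and the deletion cannot be told apart. The labels name neither animals nor pooling, and any p-value speaks only for the spread among these 6 libraries.

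B cells recognise antigen through a surface immunoglobulin held in a complex with the products of Cd79a and Cd79b, whose cytoplasmic tails recruit kinases when antigen binds. Cr2 lowers the threshold of that signal and Cd22 restrains it, while Pax5 holds cells in the B lineage and Spib supports receptor signalling in mature cells. Healthy islets hold few B cells, and the genes are abundant in lymph nodes, spleen and the lymphoid tissue of the gut.

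The recovered read totals ran from 16398862 to 18387313 per library. Mettl3 itself was at 3.42, 2.89 and 3.93 FPKM (fragments per kilobase of gene, scaled between libraries) in the flox/flox libraries and at 4.06, 4.20 and 4.15 in those labelled knockout. It was not lower in the latter (log2 difference 0.25, SE 0.11, limma adjusted p = 0.12). With each library scaled to its own total it was higher there (log2 difference 0.61, limma adjusted p = 0.0042). These values cover the whole gene in whole islets, so a loss of single exons in β cells was not tested. The libraries labelled β-Mettl3-KO are therefore called labelled knockout throughout. Islet identity was clear in all 6, since 10 endocrine genes such as Ins1, Ins2, Gcg and Sst took 19.4% to 36.0% of reads. Labelled-knockout library 3 lay between libraries 1 and 2 for 51.8% of 14040 tested genes with a labelled-knockout mean of at least 1 FPKM, and for 8 of the 9 B-cell genes. Flox/flox library 3 lay between the other flox/flox libraries for 41.8% of those genes and for 6 of the 9. Libraries of a group may therefore not be independent, which was not tested, and counts are also given without labelled-knockout libraries 2 and 3.

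Short stretches upstream of RefSeq start sites of 5 of the genes are shown first, because the genes share the same difference between the groups and the motifs named are those of factors that act at B-cell promoters. They come from RefSeq promoter entries (GRCm38.p6), which matched 6 of the 9 genes in 8 windows. Cd79b, Ms4a1 and Blk had no entry. Each is written 5′ to 3′ on the gene's own strand, with the motif in capitals and 25 bases either side, and none lies in an annotated exon. The Cd22 stretch lies within the gene's full span, upstream of an internal start, and the other 4 lie outside their genes' spans.
Cd22, chr7:30879044-30879101, minus strand: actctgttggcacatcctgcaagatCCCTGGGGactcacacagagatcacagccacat
Spib, chr7:44532104-44532161, minus strand: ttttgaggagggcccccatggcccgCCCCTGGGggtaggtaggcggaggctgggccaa
Cd79a, chr7:24897318-24897373, plus strand: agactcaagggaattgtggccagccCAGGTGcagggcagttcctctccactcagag
Cr2, chr1:195176777-195176832, minus strand: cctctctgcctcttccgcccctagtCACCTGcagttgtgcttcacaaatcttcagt
Fcer2a, chr8:3694177-3694232, minus strand: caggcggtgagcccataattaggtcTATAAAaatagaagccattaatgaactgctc
The capitals in Cd22 and Spib match CCCNNGGG, the core bound by Ebf1, in the 250 bases upstream of the start, from -48 to -41 and from -65 to -58. Spib holds a second, overlapping match from -64 to -57. On both strands, CCCNNGGG was found in 11.8% of 32851 promoter windows of that length. The capitals in Cd79a and Cr2 match the E-box CAGGTG or its reverse CACCTG, which E proteins such as Tcf3 bind. Windows at internal starts of Cd22 and Fcer2a held it too, and 17.2% of all windows did. A TATA box, TATAAA, stood from -33 to -28 at 1 of the 3 start sites of Fcer2a, and 12.4% of windows held it on either strand. An Ets core, AGGAAGT, of the class read by Spib, was found at Cd79a from -55 to -49 of the RefSeq start, inside an annotated Cd79a exon, and in 7.69% of all windows. The E-box CAGCTG stood from -30 to -25 at an internal start within Fcer2a and in 13% of windows. The octamer ATGCAAAT was in none of the 8 windows and in 1.6% of all windows, which says only that these letters were not there. The Pax5 window held no match to any of these motifs. The matches given are descriptions of sequence and not measurements of binding.

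The receptor subunits were the most abundant of the 9 genes in the labelled-knockout libraries, and they differed most from each other in the flox/flox libraries. Cd79a (ENSMUSG00000003379, chr7:24897381-24902197, plus strand, GRCm38 as for all coordinates) was at 5.40, 2.71 and 4.44 FPKM in flox/flox libraries 1 to 3 and at 38.6, 22.0 and 29.4 in labelled-knockout libraries 1 to 3. All 3 labelled-knockout libraries lay above all 3 flox/flox libraries, with library 1 highest and library 2 lowest. The means were 4.18 ± 1.36 and 29.99 ± 8.32 FPKM (SD, n = 3 each), a ratio of 7.18. The exact 95% counting interval of that ratio ran from 6.33 to 8.16, and this and later intervals cover counting error only.

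Cd79b, the partner of Cd79a in the same heterodimer (ENSMUSG00000040592, chr11:106311341-106314762, minus strand), was close to absent from the flox/flox libraries. It had 1, 3 and 3 reads there, or 0.0462, 0.145 and 0.141 FPKM. The labelled-knockout libraries had 838, 504 and 736 reads, or 28.1, 18.0 and 24.8 FPKM. Groups did not overlap, and the ratio of means, 216, had a counting interval of 105 to 537. Flox/flox levels came to 13.9% of the labelled-knockout mean for Cd79a and to 0.469% for Cd79b. Cd79a was thus 37.7 times Cd79b in the flox/flox means, against 1.37, 1.22 and 1.19 times in labelled-knockout libraries 1, 2 and 3. Arhgef1, on the same strand 715 bases downstream of Cd79a, was at 22.9 to 25.1 FPKM in the flox/flox libraries and at 23.9 to 26.8 in the labelled-knockout ones, and its part in the Cd79a values was not tested.

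**Figure D1:**
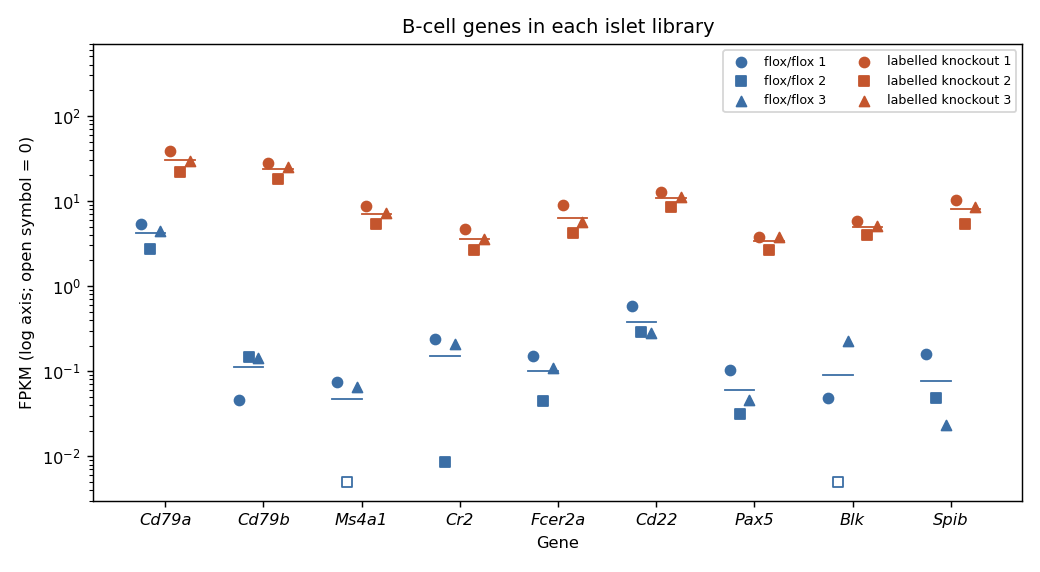
FPKM of the 9 B-cell genes (log axis) in each of the 6 libraries; circles, squares and triangles are libraries 1, 2 and 3 of a group, lines are group means, and open symbols are values of 0. Every labelled-knockout point lies above every flox/flox point of its gene, and Cd79a alone has flox/flox values above 1 FPKM.

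Among the surface proteins that tune the receptor, Cd22 was the most abundant. Cd22, an inhibitory lectin that binds sialic acid (ENSMUSG00000030577, chr7:30865402-30880342, minus strand), was at 0.577, 0.288 and 0.281 FPKM in the flox/flox libraries and at 12.7, 8.45 and 11.2 in the labelled-knockout ones. The groups did not overlap, library 2 was the lowest of the labelled knockouts, and the means of 0.382 ± 0.169 and 10.8 ± 2.17 (SD, n = 3 each) gave a ratio of 28.2 (22.8 to 35.4). Cr2, the complement receptor of the co-receptor complex, which is also found on follicular dendritic cells (ENSMUSG00000026616, chr1:195136811-195176716, minus strand), was at 0.236, 0.00853 and 0.208 FPKM against 4.68, 2.63 and 3.55. Its flox/flox libraries split into 2 with 29 and 25 reads and library 2 with 1 read, all below the lowest labelled-knockout library. The ratio of means was 23.9 (18.2 to 31.8).

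Ms4a1, a membrane protein of mature B cells that is the target of B-cell-depleting antibodies (ENSMUSG00000024673, chr19:11249675-11266241, minus strand), had 7, 0 and 6 reads in the flox/flox libraries. A count of 0 allows up to 3 reads there. Its labelled-knockout libraries had 1121, 646 and 938 reads, or 8.69, 5.34 and 7.31 FPKM, and the ratio of means was 151 (88.3 to 284). Fcer2a, the low-affinity receptor for IgE carried by mature follicular B cells (ENSMUSG00000005540, chr8:3681737-3694175, minus strand), was at 0.150, 0.0448 and 0.109 FPKM against 8.90, 4.20 and 5.63. Neither gene overlapped between groups, and Fcer2a had the widest gap within the labelled knockouts, library 1 being 2.12 times library 2. The ratio of means for Fcer2a was 61.7 (36.6 to 113).

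The kinase and the transcription factors were likewise higher in every labelled-knockout library than in any flox/flox library. Blk, a Src-family kinase that phosphorylates the receptor tails and has also been described in β cells (ENSMUSG00000014453, chr14:63372836-63417037, minus strand), was at 0.0490, 0 and 0.225 FPKM in the flox/flox libraries from 2, 0 and 9 reads. The labelled-knockout libraries had 5.87, 4.0 and 5.11 FPKM from 330, 211 and 286 reads, a ratio of 54.6 (30.4 to 110). Blk was near 0 in flox/flox islets, in which Ins1 averaged 71100.5 FPKM. Which cells gave the Blk reads of the labelled knockouts was not tested.

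Pax5, which commits precursors to the B lineage (ENSMUSG00000014030, chr4:44524757-44710487, minus strand), was at 0.105, 0.0313 and 0.0456 FPKM against 3.75, 2.66 and 3.77. It was the 1 gene of the 9 in which labelled-knockout library 3 rather than library 1 was highest, and that gap was far smaller than the group's SD of 0.636. The ratio of means was 55.8 (37.4 to 87.4). Spib, an Ets-family factor that B cells share with plasmacytoid dendritic cells and with the M cells over gut lymphoid follicles (ENSMUSG00000008193, chr7:44525993-44532071, minus strand), was at 0.161, 0.0483 and 0.0235 FPKM against 10.4, 5.31 and 8.49. Its groups did not overlap, and the ratio of means was 103 (56.0 to 216).

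As a set, the 9 had log2 differences, on the scale log2(FPKM + 0.5), of 2.65 for Cr2 to 5.28 for Cd79b with a median of 3.43, beside a median of -0.0045 over all 14497 genes tested. In all, 228 tested genes (1.57%) had a log2 difference above that of Cr2. The labelled-knockout libraries lay above the flox/flox libraries in 9 of 9, as they did in 25.1% of tested genes and in 17.5% of the 32456 genes with a read. All 9 passed the mean of 1 FPKM required for testing, but 8 did so only through the labelled-knockout group and so had to differ. Nothing is read from these counts, because the genes were chosen from this contrast. In bulk RNA, more B cells and more RNA per B cell cannot be told apart.

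Within the labelled-knockout libraries the levels, which FPKM sets per length of gene, ran from Cd79a (29.99) and Cd79b (23.6) through Cd22 (10.8), Spib (8.05), Ms4a1 (7.11), Fcer2a (6.25), Blk (4.99) and Cr2 (3.62) to Pax5 (3.39 FPKM). Only Cd79b and Cd22 were neighbours in that order whose ranges over the 3 libraries did not overlap. Compared library by library, each gene was above the next in 3 of 3 for Cd79a, Cd79b, Cd22, Fcer2a and Blk. Spib was above Ms4a1 in 2 of 3, Ms4a1 above Fcer2a in 2 of 3, and Cr2 above Pax5 in 1 of 3.

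The 9 genes rose and fell together between the labelled-knockout libraries. Summed over the 9, they came to 121.7, 72.6 and 99.3 FPKM in libraries 1, 2 and 3, and to 6.80, 3.27 and 5.54 in the flox/flox libraries. Library 1 exceeded library 2 in 9 of 9, by 1.41 times (Pax5) to 2.12 times (Fcer2a). Expressed relative to Cd79b, several genes varied little. The coefficient of variation over the 3 libraries was 20.1% for the FPKM of Cd22 and 2.22% for its ratio to Cd79b. For Ms4a1 it went from 23.7% to 2.67%, and for Blk from 18.8% to 4.01%. Counting error alone was at most 4.45% for Cd79b and 6.88% for Blk, so for these genes the ratio varied about as little as counting allowed. Spib at 11.1% and Fcer2a at 19.4% varied more, both being highest relative to Cd79b in library 1. The ratio of Fcer2a to Cd79b was 0.317, 0.233 and 0.227 in libraries 1, 2 and 3.

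**Figure D2:**
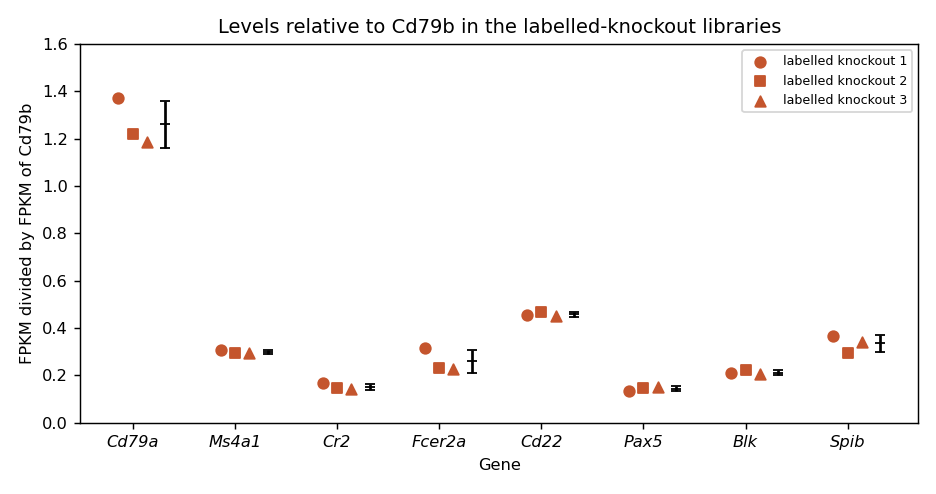
FPKM of the other 8 genes divided by the FPKM of Cd79b in labelled-knockout libraries 1 (circle), 2 (square) and 3 (triangle), with the mean ± SD over the 3 libraries in black. Cd22, Ms4a1 and Blk hold nearly the same ratio in each library, while Cd79a and Fcer2a are higher in library 1.

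The wider B-cell programme was described with 57 other genes from 3 lists: receptor signalling, surface proteins and transcription factors. Of these, 54 were tested, 43 rose, 1 fell and 10 did not pass limma's threshold of an adjusted p under 0.05. Over all 14497 genes 34% passed, 16.9% higher and 17.2% lower (2446 and 2489 genes), a split that became 7550 higher and 716 lower when each library was scaled to its own total. Because 29 of the 54 had a flox/flox mean under 1 FPKM, they could pass the filter only by being higher in the labelled knockouts. Of the 25 at or above 1 FPKM in flox/flox islets, 14 rose. The median log2 difference over the 54 was 1.47. Of all 57, 48 had non-overlapping groups with the labelled knockouts higher, and 2 the reverse. Over all tested genes those shares were 25.1% and 25.4%. Among all genes with a read, 17.5% had the labelled knockouts higher without overlap. Without labelled-knockout libraries 2 and 3, 35 of the 54 rose, and with 1 library left out at a time 40 to 42 did.

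In the list for receptor signalling, 16 of 20 tested genes rose, 7 of the 11 with a flox/flox mean of at least 1 FPKM among them, and the median log2 difference was 1.12. Siglecg, an inhibitory relative of Cd22, rose by 2.70 on the log2 scale (SE 0.24, limma adjusted p = 0.000588), Ptprc, the phosphatase CD45 of all leukocytes, by 2.27 (SE 0.11), and Syk, the kinase recruited to the Cd79 tails, by 2.22 (SE 0.19). Dapp1, an adaptor downstream of phosphoinositide 3-kinase, fell from 4.38 ± 0.937 to 2.27 ± 0.313 FPKM (SD, n = 3 each; log2 difference -0.80, SE 0.16, limma adjusted p = 0.0104). That fall did not pass when each library was scaled to its own total (limma adjusted p = 0.0539).

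The surface proteins had the highest median log2 difference of the 3 lists, 2.36, with 16 of 18 tested genes higher, 3 of the 5 at or above that flox/flox level among them. Ly6d, a marker of B-lineage cells that some epithelia also carry, rose by 4.17 on the log2 scale (SE 0.50, limma adjusted p = 0.00168). H2-Ob, a chain of the non-classical class II molecule that B cells use to edit antigen loading, rose by 4.09 (SE 0.25), from a range of 0.0439 to 0.44 FPKM to one of 8.53 to 13.8. Fcmr, the receptor for IgM, rose by 3.90 (SE 0.25) and Cd37, a tetraspanin of mature B cells, by 3.84 (SE 0.27). Cd24a and Cd38, which are not restricted to B cells, did not pass.

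Of the transcription factors, 11 of 16 tested rose, 4 of the 9 at or above that flox/flox level among them, and the median log2 difference was 0.84. Pou2af1, the co-activator that B cells use with octamer-binding factors, went from 0.104, 0 and 0.0793 FPKM to 14.5, 8.17 and 11.1 (log2 difference 4.36, SE 0.21, limma adjusted p = 7.47e-05). Ikzf1, a factor of all lymphocytes, rose by 2.66 (SE 0.17), Irf4 by 2.35 (SE 0.21) and Irf8 by 2.32 (SE 0.10). Ebf1, which works beside Pax5 and is also expressed in stromal and vascular cells, was at 1.17 ± 0.0691 against 1.52 ± 0.0288 FPKM (SD, n = 3 each). Its labelled-knockout libraries were higher in 3 of 3, but the difference of 0.28 did not pass (SE 0.14, limma adjusted p = 0.163). It passed with own-total scaling (limma adjusted p = 0.0131) and with limma's voom on recovered reads (limma adjusted p = 0.0302).

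**Figure D3:**
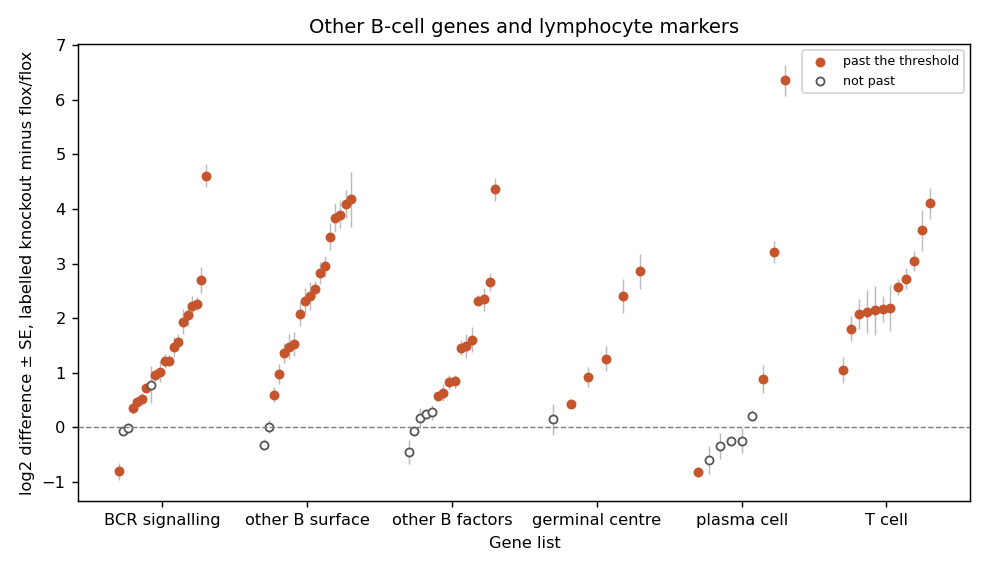
Log2 difference (labelled knockout minus flox/flox, on the log2(FPKM + 0.5) scale, bars SE) of each tested gene in 6 lists; filled points pass an adjusted p of 0.05. The B-cell and T-cell lists lie mostly above 0, and Jchain at 6.36 is the highest point.

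Genes of other B-cell stages differed between lists. Early precursors in the marrow rearrange their receptor genes with Rag1 and Rag2 and carry a surrogate light chain. Rag1, Vpreb2 and Igll1 had 0 reads in all 6 libraries, and Rag2 had 1 read in all. Of the other precursor genes too low to test, Vpreb1 had 3 flox/flox and 10 labelled-knockout reads, Dntt 4 and 3, and Arpp21 5 and 8. Of 9 precursor genes, 2 were tested. Vpreb3, which mature B cells also express, rose by 2.76 on the log2 scale (SE 0.23, limma adjusted p = 0.000507). Its flox/flox mean was 0.0523 FPKM, so Vpreb3 entered the test only through the labelled knockouts and had to be higher. Cd93, which endothelium also carries, fell by 0.57 (SE 0.14, limma adjusted p = 0.0224). The call for Cd93 was lost without flox/flox library 2 or 3 or labelled-knockout library 1 or 3 (limma adjusted p from 0.0511 to 0.0719).

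Germinal centres are the sites where activated B cells mutate and select their receptors. In that list 9 of 10 genes had all labelled-knockout libraries above all flox/flox libraries, as did 17.5% of all genes with a read. Of the 6 tested, 5 rose, but 4 of the 6 had a flox/flox mean under 1 FPKM and entered the test only by being higher in the labelled knockouts. Of the other 2, 1 rose. Mef2b, a germinal-centre transcription factor, rose by 2.86 on the log2 scale (SE 0.33, limma adjusted p = 0.00139). Rgs13, a brake on chemokine signalling, had no read in any flox/flox library and 2.70, 1.39 and 2.62 FPKM in the labelled knockouts, which is at least 55.2-fold higher when the flox/flox group is set to 3 reads in all. Mybl1 rose by 1.26 (SE 0.23, limma adjusted p = 0.00832). Bcl6, the master factor of the germinal centre, rose by 0.93 (SE 0.18, limma adjusted p = 0.00994), a call lost without labelled-knockout library 3 (limma adjusted p = 0.0508).

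Plasma-cell genes did not move as a group: of 9 tested, 3 rose, 1 fell and 5 did not pass. Without flox/flox library 1 the numbers were 2 higher and 2 lower. The 5 that did not pass in the main test had flox/flox means of 12.8 to 93.0 FPKM. Whether they report plasma cells in islets was not tested. Of all 12 genes in the list, 6 had every labelled-knockout library above every flox/flox library, and 2 showed the reverse. The first pattern held in 17.5% of all genes with a read, and the reverse in 25.4% of tested genes. Jchain, which joins polymeric IgA and IgM, went from 0.656, 0.55 and 0.803 FPKM to 61.7, 144.5 and 95.8, a rise of 6.36 on the log2 scale (SE 0.29, limma adjusted p = 6.03e-05). Its flox/flox mean was 0.67 FPKM, so Jchain entered the test only through the labelled knockouts and had to be higher. Of the 8 tested plasma-cell genes with a flox/flox mean of at least 1 FPKM, 2 rose. Unlike the 9 B-cell genes, Jchain was highest in labelled-knockout library 2. Mzb1, a chaperone of antibody-secreting and marginal-zone B cells, rose by 3.22 (SE 0.20). Sdc1 rose by 0.89 (SE 0.26, limma adjusted p = 0.0378), a call lost without flox/flox library 1 or 3 or labelled-knockout library 2 or 3 (limma adjusted p from 0.1 to 0.112). Prdm1, the master factor of plasma cells that other tissues also use, fell by 0.82 (SE 0.09, limma adjusted p = 0.00123).

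Signals that reach B cells were mostly too low to test. Of 8 ligands, 2 were tested and 1 passed: Cxcl13, the chemokine that draws B cells into follicles. It was at 3.91, 0 and 3.40 FPKM in the flox/flox libraries and at 33.7, 13.3 and 23.4 in the labelled knockouts, with the order of libraries seen in 8 of the 9 B-cell genes. Cxcl13 rose by 3.45 on the log2 scale (SE 0.84, limma adjusted p = 0.0218), and the call was lost without labelled-knockout library 1 or 3 (limma adjusted p = 0.0621 and 0.0697). Cd40lg, the T-cell ligand that licenses B cells, had no flox/flox read and was at least 10.2-fold higher in the labelled knockouts. Of the 8 ligands, 3 had every labelled-knockout library above every flox/flox library, as did 17.5% of all genes with a read. The other 5 overlapped between groups. Among those was Tnfsf13b, which encodes the survival factor BAFF, with means of 0.535 FPKM in flox/flox and 0.452 in labelled-knockout libraries. In the list of follicular dendritic cell and lymphoid stroma genes, 4 of 5 tested rose (2 of the 3 with a flox/flox mean of at least 1 FPKM, and 1 without labelled-knockout libraries 2 and 3), among them Madcam1, the gut-homing addressin, by 2.82 (SE 0.32, limma adjusted p = 0.00135). Madcam1 was at 2.84, 7.09 and 4.20 FPKM in labelled-knockout libraries 1, 2 and 3, highest in library 2.

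Markers of other cell types moved with the groups as well, and their part in the B-cell values was not tested. All 19 T-cell genes had every labelled-knockout library above every flox/flox library, as did 17.5% of all genes with a read, and the 12 that were tested rose. Of those 12, 11 had a flox/flox mean under 1 FPKM and entered the test only through the labelled knockouts, so they had to be higher. Without labelled-knockout libraries 2 and 3, 8 of the 12 still rose. Their summed level was 5.63 to 7.44 FPKM in flox/flox islets against 57.7 to 102.0 in the labelled knockouts. Trbc2, a constant segment of the T-cell receptor, rose by 4.10 on the log2 scale (SE 0.29, limma adjusted p = 0.000265), and Trbc1 by 3.61 (SE 0.38), 2 near-identical genes whose reads may be shared. Cd3e was too low for the test, with 0, 0.0509 and 0 FPKM in the flox/flox libraries and 0.705, 1.54 and 1.158 in the labelled knockouts. T-cell genes were thus higher in the same libraries as the B-cell genes.

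Genes of the small-intestinal absorptive cell were the markers that differed most between labelled-knockout libraries. Of 15, 14 were tested, 12 rose and 2 did not pass, and of the 7 with a flox/flox mean of at least 1 FPKM 5 rose. With voom on recovered reads 3 rose, and without flox/flox library 3 or labelled-knockout library 3 it was 8. Their summed level was 60.1 to 68.2 FPKM in the flox/flox libraries against 158.1, 961.0 and 499.2 in labelled-knockout libraries 1, 2 and 3. Alpi, the intestinal alkaline phosphatase, had no flox/flox read. Fabp2, the intestinal fatty-acid-binding protein, had 0, 0.287 and 0 FPKM there against 8.95, 145.9 and 66.0 (log2 difference 6.28, SE 0.93, limma adjusted p = 0.00361). The calls for Fabp2 and Alpi did not pass with voom on recovered reads (limma adjusted p = 0.393 and 0.28). Library 2, which was highest for these genes, was the lowest for 9 of the 9 B-cell genes among the labelled knockouts.

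Macrophage genes summed to 152.8 to 173.1 FPKM in flox/flox islets and to 153.9 to 185.7 in the labelled knockouts, with 1 of 8 tested higher and 3 lower. Lyz2 rose by 1.25 (SE 0.14, limma adjusted p = 0.00116) and C1qb fell by 0.65 (SE 0.10, limma adjusted p = 0.00455). The calls of lower macrophage genes did not hold with own-total scaling (for C1qb limma adjusted p = 0.0886), and 1 of them held without flox/flox library 3 or labelled-knockout library 3. The lists of plasmacytoid dendritic cells and M cells bear on Spib, which those cells share. In the first, 1 of 5 tested genes passed, Klk1, which fell by 1.36 (SE 0.32, limma adjusted p = 0.0196). That call was lost without flox/flox library 3 or labelled-knockout library 2 or 3 (limma adjusted p from 0.0522 to 0.0672). Klk1 was at 12.2, 32.0 and 17.6 FPKM in flox/flox libraries 1, 2 and 3. The summed acinar genes were also highest in flox/flox library 2, and an acinar share in Klk1 was not tested. Siglech, a defining gene of plasmacytoid dendritic cells, was too low for the test. It was at 0.179 to 0.246 FPKM in flox/flox islets and 0.627 to 0.71 in the labelled knockouts, a ratio of 3.30 (2.23 to 5.05). With Ccr9, Runx2 and Irf7 it was among 4 of 8 genes whose labelled-knockout libraries all lay above the flox/flox ones, while 2 of 8 showed the reverse. Labelled-knockout libraries were all higher in 17.5% of all genes with a read, and flox/flox libraries in 25.4% of tested genes. Among M-cell genes 1 of 5 tested rose, Marcksl1 by 1.40 (SE 0.19, limma adjusted p = 0.00268), and 3 fell, Gp2 by 1.67 (SE 0.48, limma adjusted p = 0.0378). None of those 3 falls passed with own-total scaling or without labelled-knockout library 3. Gp2 is also a pancreatic acinar gene, and its call was lost without flox/flox library 2 or 3 or labelled-knockout library 2 or 3 (limma adjusted p from 0.078 to 0.107).

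**Figure D4:**
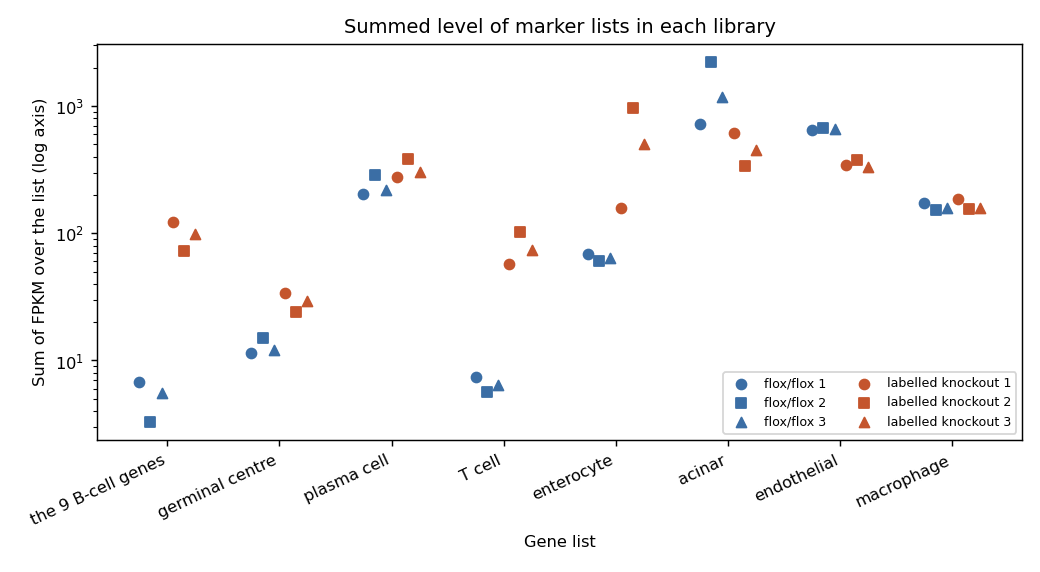
Summed FPKM (log axis) of 8 marker lists in each library; circles, squares and triangles are libraries 1, 2 and 3 of a group. The B-cell, germinal-centre, T-cell and enterocyte sums are higher in all 3 labelled-knockout libraries, with library 1 highest for the B-cell sum and library 2 highest for the T-cell and enterocyte sums.

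The order of the 3 labelled-knockout libraries differed between lists. The order 1, 3, 2 from highest to lowest held in 8 of the 9, in 6 of 8 germinal-centre genes with a labelled-knockout mean of at least 1 FPKM, and in 27 of 56 genes of the 3 other B-cell lists. The opposite order, 2, 3, 1, held in 15 of 15 enterocyte genes and in 12 of 17 T-cell genes. Over all 14040 such genes the shares were 27.6% and 24.2%. Islet endocrine genes shared the order of the 9 in 9 of 10, and acinar genes in 9 of 10. As a median, library 1 was 1.63 times library 2 for the 9 genes, 1.80 times for the germinal-centre list, 1.38 times for the endocrine list and 1.90 times for the acinar list. It was 0.591 times for the T-cell list, 0.106 times for the enterocyte list and 1.01 times over all these genes. These are orders of 3 libraries and were not tested.

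**Figure D5:**
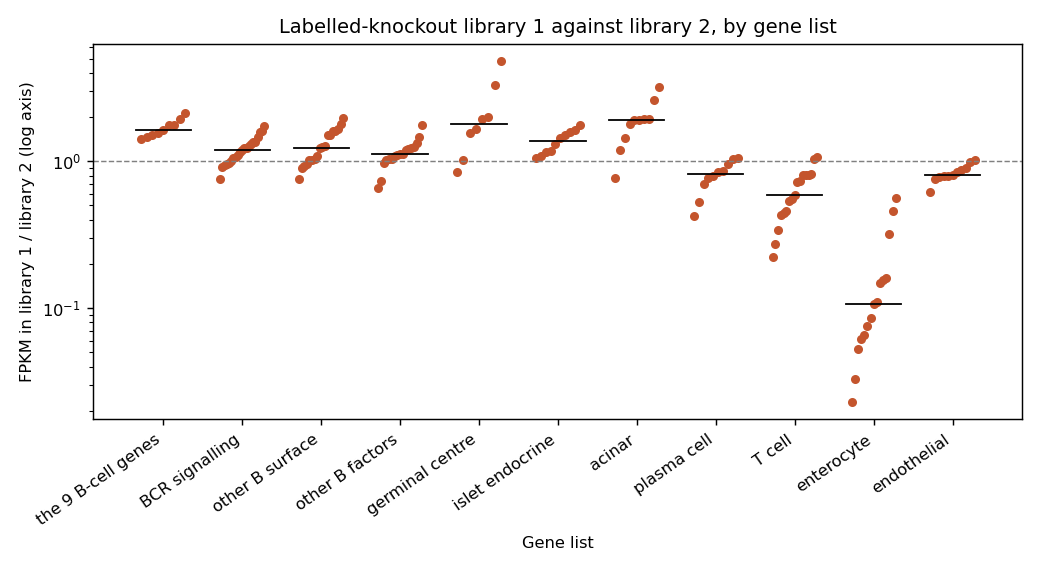
FPKM in labelled-knockout library 1 divided by that in library 2 (log axis), for each gene with a labelled-knockout mean of at least 1 FPKM, by list; horizontal bars are medians and the dashed line marks equal values. The 9 B-cell genes lie between 1.41 and 2.12, and all enterocyte genes lie below 1.

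The acinar and endothelial lists went the other way between the groups. Acinar genes summed to 725.0, 2219 and 1178 FPKM in flox/flox islets, against 614.0, 337.0 and 454.5 in the labelled knockouts. In 9 of the 11 acinar genes the groups did not overlap, with flox/flox higher, as in 25.4% of tested genes. Of the 10 tested, limma called 8 lower, but at most 1 without flox/flox library 2 or 3 or labelled-knockout library 2 or 3. Endothelial genes summed to 644.8 to 669.3 FPKM against 333.1 to 377.5, and 11 of 11 fell (8 of 11 with own-total scaling). Lower values of these lists stood beside higher values of the B-cell genes in all 3 labelled-knockout libraries. The insulin genes were lower too, with Ins1 at 71100.5 ± 6038 against 21187 ± 564 FPKM and Ins2 at 196848 ± 25057 against 80157 ± 3847 (SD, n = 3 each), and neither overlapped between groups.

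The tested genes whose pattern over the 6 libraries was most like that of the 9 were found by the root mean square difference between centred log2(FPKM + 0.5) profiles. Tnfrsf13c, the receptor for the B-cell survival factor BAFF, was nearest at 0.0875, and its levels were 0.194, 0.0338 and 0.0658 FPKM against 8.55, 4.34 and 6.33. Btla, an inhibitory receptor of lymphocytes, followed at 0.127 with 0.264, 0.0638 and 0.331 FPKM against 8.56, 6.26 and 7.77. Dusp2, a phosphatase of activated immune cells, was at 0.191. Ighm, the constant region of the IgM heavy chain, was at 0.201, with 4.63, 3.60 and 3.57 FPKM against 59.9, 53.4 and 52.4.

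The other 4 of the 8 nearest were immunoglobulin segments: Ighv5-4 at 0.181, Igkv6-32 at 0.189, Iglj3p at 0.221 and Igkv12-44 at 0.223. Reads of such segments can be shared between near-identical copies, so their levels are uncertain. The 9 genes themselves lay at 0.116 (Fcer2a) to 0.913 (Cd79b) from their own mean profile, so all 8 were nearer to it than Cd79a, Cd79b, Cr2 and Pax5 were.

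Genes beside or across the 9 were read for shared signal. Scn4a, a muscle sodium channel on the same strand 3830 bases from Cd79b, had 11 reads over the flox/flox libraries and 543 over the labelled knockouts, at 1.57, 0.821 and 1.37 FPKM in the latter. That is the order of libraries seen for Cd79b at a lower level, and whether reads were shared was not tested. Ffar1, the fatty-acid receptor of β cells on the same strand 3838 bases from Cd22, went the other way, with 27.8 to 34.5 FPKM in flox/flox islets and 10.7 to 14.7 in the labelled knockouts. Genes overlapping one of the 9 had few reads. 4930526L06Rik across Ms4a1, Gm29439 across Cd22 and Mir5120 within Pax5 had 0 reads in every library. Of the others across Pax5, 5730488B01Rik had 11, 4930517J16Rik 4 and Gm12462 3 reads, all in the labelled knockouts. Whether counting used strand is not given in the sources used here.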

How the data were processed

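The authors deposited 1 table of FPKM values for 6 islet libraries, whose headers also give each gene's length and position. Tools listed in the submitters' processing notes are DESeq2 1.16.1, featureCounts 1.5.0-p3 and HISAT2 2.0.5, and the build is GRCm38 patch 6. What each did, and its settings: not given in the sources used here. Multiplying each FPKM by its gene's length and dividing by a step fixed per library gave whole numbers (within 0.1) for 100% of values, which were taken as reads. They summed to 16398862 to 18387313 per library. The step showed that the deposited values already carried median-of-ratios scaling, which leaves total RNA unmeasured. 0 other columns of per-sample values were present.

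The test was limma (3.58.1, R 4.3.3) on log2(FPKM + 0.5) with a variance trend, for genes averaging 1 FPKM or more, two-sided, over all 14497 genes, at a Benjamini-Hochberg adjusted p under 0.05. Fold changes on this scale understate those of low genes. The test was tried on simulated data. Ratios of means carry exact 95% counting intervals. Alternatives were pseudocounts of 0.1 and 1, no filter or 5 FPKM, own-total and quantile scaling, voom on recovered reads, a replicate block and leaving out each library. Leaving out labelled-knockout libraries 2 and 3 together was added after the data were seen.

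The 9 genes and the 16 other lists (207 entries with the 9, 206 in the table) were chosen with earlier results of these data known. Genes named are the 9, Mettl3, Ins1, Ins2, Gcg, Sst, Ebf1, Pou2af1, Jchain, Cd3e and Fabp2, and in each list described the 2 to 4 called genes of largest log2 difference in size. The rule adds genes without a read in a group, the 8 nearest profiles and genes overlapping the 9. Neighbours, Cd24a, Cd38, Siglech, Ccr9, Runx2, Irf7, Tnfsf13b, Vpreb1, Dntt and Arpp21 were named after their values were seen. Gene coordinates equalled GENCODE M21 (GRCm38) for all 9. Some genes that the rule or the lists hold are not reported here by name.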

Additional observations from a re-analysis of the deposited data

How the results depend on the processing

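The 9 genes stayed higher in the labelled knockouts under every alternative run, except that a filter at 5 FPKM left only Cd79a, Cd79b and Cd22 of them to test. Their median log2 difference, 3.43, was 4.90 with a pseudocount of 0.1, 2.67 with 1, 2.91 with quantile scaling, 5.87 with voom, 3.16 to 3.66 with 1 library left out and 3.92 without labelled-knockout libraries 2 and 3. Over all genes the 4935 calls (2446 higher, 2489 lower) became 3090 (1247 higher) with a filter at 5 FPKM and 8266 (7550 higher, 716 lower) with own-total scaling, which moved the median of all genes from -0.0045 to 0.36 on the log2 scale. Leaving out 1 library gave 2780 to 4236 calls, 1370 to 2106 higher and 1410 to 2130 lower, the lowest without labelled-knockout library 3. Leaving out labelled-knockout libraries 2 and 3 gave 1317 calls (771 higher, 546 lower), with the lone library assumed to vary like the others. Many of the calls reported above were lost in that fit. Among them were Dapp1 (log2 difference -0.975), Ly6d (4.10), Trbc1 (3.14), Marcksl1 (1.40), Cxcl13 (4.06), Cd93 (-0.79), Sdc1 (0.48), Gp2 (-1.005) and Klk1 (-1.16). Every acinar call was lost there too, as were calls of genes not named here. The 44 calls among the other B-cell genes (43 higher, 1 lower) became 10 with the filter at 5 FPKM, which tests fewer genes (10 higher, 0 lower), 51 higher and 0 lower with own-total scaling, 47 with voom (2 lower), 41 to 44 with 1 library left out (40 to 42 higher, 1 to 2 lower) and 35 without labelled-knockout libraries 2 and 3 (35 higher, 0 lower). Signs turned with own-total scaling for Cd81 (0.33, limma adjusted p = 0.0155), Prkcb (0.37, 0.0107), Tcf3 (0.33, 0.00887) and Csf1r (0.0054, 0.969), and with quantile scaling for Iapp (0.75, 0.00516). For these the cause was not tested beyond the shift given.

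The labels share replicate numbers 1 to 3, but deviations of same-numbered libraries correlated at 0.0811, 0.0751 and 0.0423, none over 0.1, so the numbers were not taken as pairs. Each library correlated best with its own number, a hint from the data and not the design. With the replicate block 4659 genes passed, and 42 other B-cell genes rose and 2 fell. Low counts limit the 8 genes near 0 in the flox/flox libraries, whose ratios are known only to the counting intervals given.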
